A study of Mus musculus with 36 samples.

Results

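The miRNAs described here are those with a name numbered 1000 or above, most of which entered the miRNA catalogue late, once deep sequencing made rare small RNAs visible. They were chosen by name alone: every miRNA of the deposited table whose number was 1000 or higher, whatever its suffix, with miR-3091 left out. The rule gave 134 of 469 miRNAs, and the other 335 served as the comparison. Small RNA sequencing was carried out on B3, a mouse pre-B cell line, in a time course of Ikaros activation. Ikaros is a transcription factor under which pre-B cells stop dividing and mature. The Ikaros line carried HA-tagged Ikaros fused to ERt2, an estrogen receptor domain that binds tamoxifen, followed by IRES-GFP, from an MSCV retrovirus. The control line carried the ERt2 vector without Ikaros. Both lines were sampled at the start (0 h) and after 2 h, 6 h and 12 h, with further samples at 18 h and 24 h, giving 3 samples per group and 36 in all.

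The tamoxifen derivative 4-OHT, which moves the fusion protein into the nucleus, was given at 0.5 uM to both lines at 2 h to 24 h. The labels give the 0 h samples the same dose, whereas the study's methods describe them as untreated. The 0 h samples came from culture batches 4, 5 and 6, and all later samples from batches 1, 2 and 3, so time 0 h and culture batch cannot be told apart. Each line is a single transduced culture of one cell line, so p-values measure the spread between culture batches of that line. Replicates were numbered 1, 2 and 4. The study's drawing of its design shows one sequencing batch that held mostly control samples of 2 h to 18 h, and a second with most of the Ikaros series together with the 0 h and 24 h controls. The authors sequenced some samples in both batches to estimate the batch effect. They corrected for that effect with ComBat, and at 2 h to 18 h the line and the sequencing batch can be told apart only through that correction.

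MiRNAs are short RNAs cut by Drosha and Dicer from hairpins, and they guide Argonaute to messenger RNAs mainly through their seed, bases 2 to 8. A hairpin can yield a mature miRNA from its 5p arm, its 3p arm or both. Mirtrons are hairpins formed by a whole short spliced intron, which bypass Drosha, and some other miRNAs are cut from small nucleolar RNAs (snoRNAs), which guide rRNA modification, from the Cajal body RNAs (scaRNAs) or from tRNAs. Many miRNAs with high numbers are known only from rodents.

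RefSeq mature sequences (GRCm38.p6) were matched for 118 of the 134 miRNAs. The following are those on which the differences between lines described below turn, with the seed in capitals. MiR-1843b-5p is printed for its likeness to miR-1843a-5p.
miR-1198-5p: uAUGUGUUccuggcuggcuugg
miR-1198-3p: aAGCUAGCcucuaacucauggc
miR-1843a-5p: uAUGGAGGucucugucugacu
miR-1843a-3p: uCUGAUCGuucaccuccauaca
miR-1843b-5p: aUGGAGGUcucugucugacuu
miR-1187: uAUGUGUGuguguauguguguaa
miR-1946b: gCCGGGCAgugguggcacaugcuuuu
miR-3058-5p: uCAGCCACggcuuaccuggaaga
miR-3058-3p: uUCCUGUCagccgugggugcc
miR-1934-3p: aGGAUGACgguggggcugguga
miR-7655-5p: cGGCCCACggagcuccuaaaga
miR-6974-5p: gUGAGGCAgcaagagauugggggu
miR-3535: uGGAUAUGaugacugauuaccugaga
miR-1839-5p: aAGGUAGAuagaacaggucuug

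MiR-1187 is a run of UG steps, and its nearest RefSeq relative, miR-466j, differs from it by 4 edits. MiR-1843a-5p and miR-1843b-5p differ by 2 edits and have seeds shifted by one base, so their reads could have been split or shared in counting. None of the other 116 with a sequence had a RefSeq mouse miRNA within 3 edits. Seeds were shared within the table by few of them. MiR-6992-3p and miR-7015-3p had the same seed, CUCACUG. MiR-6240, miR-3473d and miR-7670-3p shared theirs with the earlier numbered miR-330-3p, miR-674-5p and miR-211-5p.

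Many of these mature sequences touched the end of a host intron. A mature sequence began (5p) or ended (3p) within 3 bases of an intron end of the GENCODE vM21 annotation (GRCm38) in 22 of 118 (18.6%), against 2 of 273 (0.733%) of the other miRNAs with a sequence. Of these 22, 19 were 3p arms, and 14 of those ended in AG, the last bases of nearly all introns. No 3p arm numbered 1000 or above ended in AG anywhere else: 14 of 45 did so, all of them at an intron end. Among the other miRNAs, 6 of 138 3p arms (4.35%) ended in AG and none of those lay at an intron end. Examples are printed with the bases at the intron end in capitals, to show the splice site letters (GU first, AG last) within the miRNAs themselves.
miR-1981-5p: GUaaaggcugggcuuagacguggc
miR-6974-5p: GUgaggcagcaagagauugggggu
miR-7091-5p: GUaggggugauagauuccauggc
miR-1982-3p: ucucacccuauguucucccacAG
miR-6944-3p: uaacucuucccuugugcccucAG
miR-7068-3p: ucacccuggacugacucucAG
miR-3103-3p: uaaccucugauccuucccacAG
miR-6988-3p: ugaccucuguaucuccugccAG
miR-7015-3p: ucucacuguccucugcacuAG

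In 7 of the miRNAs both hairpin ends lay within 3 bases of the ends of one intron, as in a mirtron. They came from introns of 74 to 96 bases in Marc2 (miR-1981-5p and miR-1981-3p, intron of 82 bases, chr1:184822407-184822488, minus strand), Oaz1 (miR-1982-3p), Dbn1 (miR-6944-3p), Lta (miR-6974-5p), Cherp (miR-7068-3p) and Dnase1l1 (miR-7091-5p). Lta encodes lymphotoxin alpha, a cytokine of lymphocytes. A further 33 had 1 hairpin end at an intron end. Over all 133 miRNAs with a hairpin in the annotation, 72 lay in introns, 38 overlapped an exon of at least 1 transcript, 6 lay in an exon of one gene and an intron of another, 16 lay between genes and 1, miR-3074-5p, had one hairpin in an intron and another between genes. Besides miR-3074-5p, both arms of miR-3084 and miR-5615-5p had 2 hairpins each. No hairpin was matched for miR-1940.

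A gene of a different small RNA class was overlapped by 17 of the 134, among them miR-5121, which also had 1 hairpin end at an intron end. MiR-3535, the most abundant of all 134, lay in a snoRNA (Gm24148) within Ncl, the nucleolin gene. MiR-5121 lay in Snord33 within Rpl13a, and miR-1291 in Snora34. Both arms of miR-1843a (Scarna3b), miR-1839 and miR-3069 (Scarna13) and the 5p arm of miR-1843b (Scarna3a) lay in scaRNAs. MiR-1983 lay over an isoleucine tRNA gene. The median level of these 17, 3.74, compares with 1.67 over all 134. GC content was higher than in the rest of the table, with a median of 52.4% against 47.6%, and 28 of 118 (23.7%) reached 60%, against 37 of 273 (13.6%).

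The deposited values were log2 expression after the authors' filter, GC correction, normalization and batch correction, and a difference of 1 is a doubling. The study gives the reads per sample only as a range, and the table holds no counts, so the number of reads behind each value is unknown. Most of the late-numbered miRNAs were rare. Their mean over the 36 samples ran from 0.79 to 7.95 with a median of 1.67, against a median of 5.39 for the others. The mean was under 2 in 76 of 134 (56.7%) and in 52 of 335 others (15.5%). On the linear scale they summed to 0.113% to 0.219% of the table in a sample. The 5 highest were miR-3535 (7.95), miR-1198-5p (7.58), miR-1839-5p (7.53), miR-1249-3p (7.40) and miR-3074-5p (6.59). The lowest were miR-5104 (0.79), miR-6990-5p (0.86), miR-1955-3p (0.90), miR-3058-3p (0.93) and miR-1190 (0.95). The median level was 2.93 for the 44 numbered below 2000, 2.07 for the 38 from 3000 to below 6000, 1.38 for the 20 from 6000 to below 7000 and 1.44 for the 32 numbered 7000 and above.

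The replicate spread followed the level. The median within-group SD was 0.38 for these miRNAs and 0.35 for the others. At the same level both sets were alike, with 0.40 for both under 2, 0.40 for both between 2 and 4, 0.35 and 0.33 between 4 and 6, and 0.27 and 0.31 between 6 and 8. Of the miRNAs common in blood cells, miR-191-5p and miR-181a-5p led the table and miR-142-5p was at 14.62, whereas miR-150-5p was at 3.90. Of those known mainly from other cells, miR-9-5p, a brain miRNA, was at 13.30 and the myeloid miR-223-3p at 2.11. The neuronal miR-124-3p, the muscle miRNAs miR-1a, miR-133a and miR-206, the liver miR-122 and the red cell miR-451a and miR-144-3p were not listed. Ikaros itself cannot be checked in a miRNA table.

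**Figure D1:**
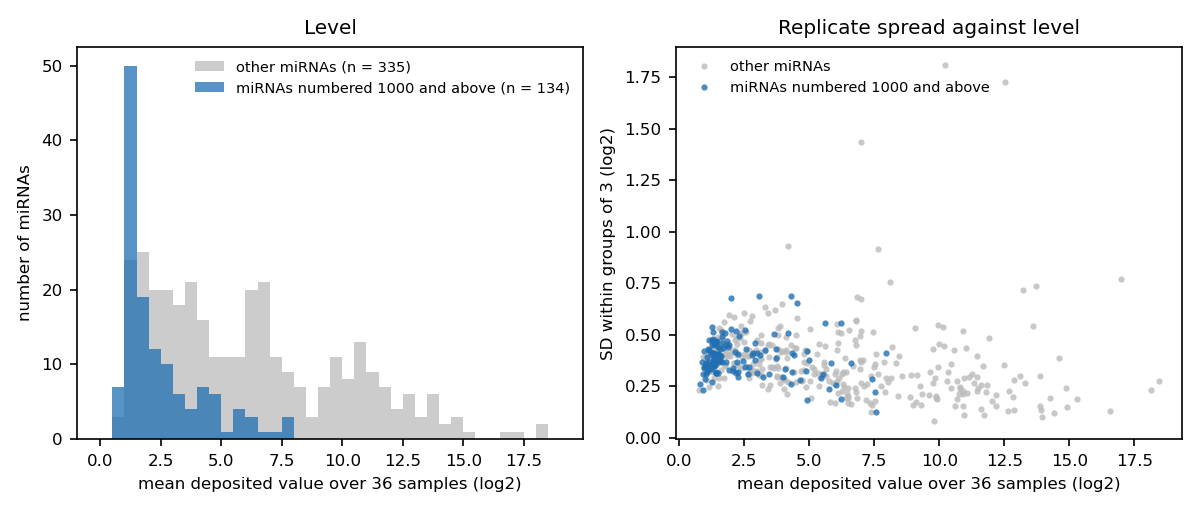
Left, number of miRNAs by mean deposited value over 36 samples (log2), for the 134 miRNAs numbered 1000 and above and the other 335. Right, the SD within groups of 3 (log2) against that mean. The late-numbered miRNAs sit mostly at the low end, with a median of 1.67 against 5.39, and at equal levels their spread was like that of the others.

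Replicates tied at one exact value marked the bottom of this range. Of the 134 miRNAs, 29 (21.6%) had 2 or 3 replicates of a group at the same value to every deposited digit, in 42 groups. Of the other 335, 18 (5.37%) did, in 39 groups. The tied value was the lowest of its group in all 42 groups and lay between 0.217 and 0.761. All 29 had a mean under 2, where 29 of 76 (38.2%) were tied, against 18 of 52 (34.6%) of the others at that level. All 3 replicates were tied in 6 groups: miR-1958 and miR-5104 in the control line at 2 h, miR-1955-3p and miR-7668-5p in the control line at 12 h, miR-6936-3p in the control line at 18 h, and miR-1946a in the Ikaros line at 24 h.

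The tied groups were uneven between the lines. The control line held 34 of the 42, with 9 in the 2 h group, 3 in the 6 h group, 17 in the 12 h group, 5 in the 18 h group and 0 in the others. The Ikaros line held 8, with 1 each in the 0 h and 2 h groups and 2 each in those of 6 h, 12 h and 24 h. The 4 times of the control line with ties are those that the study's drawing places in the other sequencing batch, and its part in the ties was not tested. A group with all 3 replicates tied has an SD of 0, whereas one with 2 tied can be widely spread (SD 0.81 for miR-1936 in the control line at 12 h). Differences at a single time that rest on a tied group are marked as such below.

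**Figure D2:**
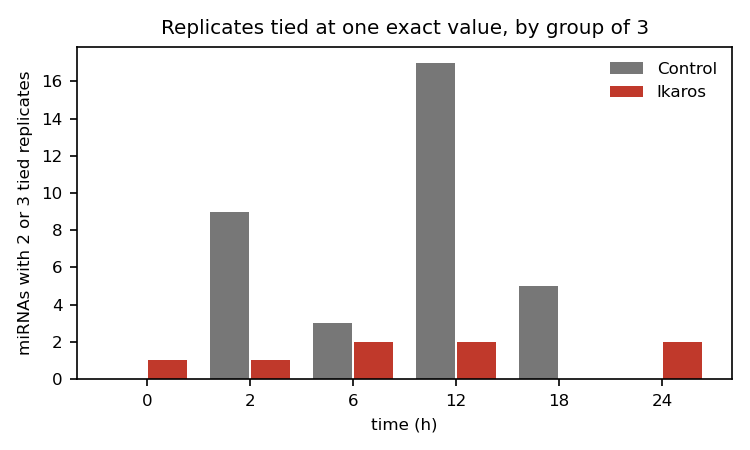
Number of miRNAs numbered 1000 and above with 2 or 3 replicates at one exact value, by time (h) and line (bars). The control line has 34 such groups, all at 2 h to 18 h, with 17 at 12 h, and the Ikaros line has 8.

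The first comparison was between the lines at each time, fitted over all 469 miRNAs with limma and called at an adjusted p (Benjamini-Hochberg) under 0.05. At each time the share of the late-numbered miRNAs called lay below the share of the table. At 0 h, 2 of 134 were called, against 8.53% of the table. The 2 h comparison called 8 (11.3% of the table called), that of 6 h called 5 (15.1%), that of 12 h 15 (21.7%), that of 18 h 14 (29.9%) and that of 24 h 26 (39.9%). In shares these are 1.49%, 5.97%, 3.73%, 11.2%, 10.4% and 19.4% of the 134. In all 70 of these calls the 3 same-numbered pairs of samples had the same sign, and in 63 the 3 values of one line did not overlap those of the other. With 3 samples a group, a small p favors both properties. Their shares over the whole table were not computed, so these counts add no support to the calls. In 10 of the 70 calls, a replicate tie stood in one of the groups. Single replicates moved these counts by over 1.5 times. Without replicate 1, 2 and 4 in turn, limma called 3, 2 and 1 at 2 h, and 0, 0 and 1 at 6 h, where 11 and 8 had an unadjusted p under 0.05 without replicates 1 and 2. At 12 h it called 13, 0 and 11 (15 with an unadjusted p under 0.05 without replicate 2), at 18 h 9, 5 and 13, and at 24 h 16, 8 and 15.

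At 24 h, 14 of the 26 were higher in the Ikaros line, where 17.9% of the table was called higher, and 12 were lower, where 22.0% was. Over all 134 the median difference was 0.06, against −0.07 over the table. The split depends on the scaling: after each sample's median was subtracted, 23 were higher and 6 lower, and after quantile normalization 17 and 9. Median subtraction raised the median difference of the whole table at 24 h by 0.23. The direction of all 120 calls in the tests of line differences was the same under both scalings.

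The smallest adjusted p at 24 h was that of miR-1198-5p, from an intron of Gripap1 (chrX:7807101-7807221, plus strand), a gene of endosomal trafficking. At 24 h the control samples had values of 7.40, 7.60 and 7.49, and the Ikaros samples 8.55, 8.35 and 8.61. At 18 h they had 7.56, 7.22 and 7.51, and 8.21, 8.18 and 8.08. At 0 h, by contrast, the Ikaros samples had 7.37, 7.47 and 7.22 and the control samples 7.51, 7.67 and 7.50. The line difference was −0.20 ± 0.14 (SE) at 0 h, 0.73 ± 0.14 at 18 h and 1.01 ± 0.14 at 24 h (limma adjusted p = 1e-06 at 24 h). It was called at 24 h in all 10 alternative fits, with an adjusted p from 1.2e-07 to 0.00258.

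The opposite arm of the same hairpin, miR-1198-3p, went the other way at 24 h. The control samples had values of 3.96, 3.67 and 4.44 and the Ikaros samples 3.31, 2.83 and 3.41, so that the lines did not overlap. Its line difference was −0.84 ± 0.26 (limma adjusted p = 0.012). The call was lost after median subtraction and without replicate 2 or 4, with an adjusted p of up to 0.0969. The 5p arm exceeded the 3p arm by 3.47 ± 0.44 (SD, n = 3) in the control line at 24 h and by 5.32 ± 0.18 in the Ikaros line, on the log2 scale. At 0 h the excess was 3.97 ± 0.45 and 4.01 ± 0.45.

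Both arms of miR-1843a, in Scarna3b within an intron of Dcaf5 (chr12:80391613-80391677, minus strand), were called higher in the Ikaros line at both 18 h and 24 h. MiR-1843a-3p had 1.79, 1.90 and 1.79 in the control samples and 3.39, 2.78 and 2.96 in the Ikaros samples at 24 h, a difference of 1.22 ± 0.28 (limma adjusted p = 0.000795). MiR-1843a-5p had 4.06, 3.63 and 3.89, and 4.68, 4.55 and 5.23, a difference of 0.96 ± 0.33 (adjusted p = 0.0206). At 24 h the lines did not overlap in either arm, and at 18 h they overlapped in the 3p arm. The 5p call was lost without replicate 2 or 4 (adjusted p up to 0.181), whereas the 3p call was made in all 9 alternative fits that tested it. The near-identical miR-1843b-5p was not called in any test. Over all times its mean was 4.30 in the control line and 4.06 in the Ikaros line, where miR-1843a-5p had 4.04 and 4.59. Whether reads split or shared between the 2 took part in the 5p call was not tested.

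Other increases at 24 h included miR-1839-5p, the other scaRNA product, at 7.26, 7.31 and 7.19 in the control samples and 7.74, 7.68 and 7.94 in the Ikaros samples. The difference of 0.54 ± 0.19 (limma adjusted p = 0.0276) was lost without replicate 1, 2 or 4 and after quantile normalization. MiR-5121, the product of Snord33, was higher by 0.97 ± 0.28 (adjusted p = 0.00743). The others called higher were miR-1949 (0.99), miR-7683-5p (0.97), miR-6997-3p (0.89), miR-8114 (0.85), miR-3058-5p (0.81), miR-5104 (0.78), miR-6240 (0.77), miR-7668-5p (0.73) and miR-5129-3p (0.69). MiR-7683-5p lies in an intron of Slamf7, which encodes a lymphocyte surface receptor, and miR-8114 in an exon of Glul, the glutamine synthetase gene. Among the 17 in other small RNA genes, 7 were called at 24 h, a share close to the 39.9% of the table, and 5 of the 7 were higher.

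The decreases were led by miR-1946b, from between genes on chromosome 9 (chr9:21613444-21613576, minus strand). At 24 h the control samples had 2.71, 1.90 and 2.33 and the Ikaros samples 0.90, 0.71 and 0.47. The difference was −1.62 ± 0.32 (limma adjusted p = 0.000192), and it was called in all 9 alternative fits that tested it. MiR-1946a, encoded on chromosome 16, had 2.26, 2.02 and 2.16 in the control samples, and all 3 Ikaros samples were tied at 0.68. Its fitted difference of −1.47 ± 0.42 (adjusted p = 0.00585) therefore rests on a group without spread, and it was not called without replicate 1 (adjusted p = 0.0774).

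MiR-1187, the UG-repeat miRNA from between genes on chromosome 5, was called lower at 6 h, 18 h and 24 h. At 18 h the control samples had 3.58, 4.13 and 3.85 and the Ikaros samples 2.42, 2.21 and 2.23. At 24 h they had 3.08, 3.51 and 3.39, and 2.56, 1.58 and 1.67. The differences were −0.84 ± 0.27 at 6 h, −1.57 ± 0.27 at 18 h and −1.39 ± 0.27 at 24 h (limma adjusted p = 0.0296, 3.33e-05 and 0.000117). At 12 h the lines overlapped, with 3.49, 2.80 and 3.59 in the control samples and 3.09, 2.48 and 2.98 in the Ikaros samples, and the difference of −0.44 ± 0.27 was not called (adjusted p = 0.239). They overlapped at 0 h too, with 3.16, 3.53 and 2.77 against 3.39, 2.79 and 2.56. The call at 24 h was made in all 10 alternative fits.

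MiR-6974-5p, the mirtron-like miRNA of Lta (chr17:35204475-35204557, minus strand), had 1.71, 1.82 and 2.28 in the control samples at 24 h. In the Ikaros samples it had 0.41, 0.41 and 0.64, of which the first pair was tied. The difference was −1.45 ± 0.36 (limma adjusted p = 0.00188). MiR-7655-5p, in an intron of Mllt10, had 2.75, 2.68 and 2.39 against 1.57, 1.36 and 1.11, a difference of −1.26 ± 0.33 (adjusted p = 0.00314). Both were called in all alternative fits that tested it.

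MiR-3074-1-3p was lower in the Ikaros line at each of the last 3 times. This miRNA lies on the strand opposite to Mir24-1, in an intron of Fancc, a DNA repair gene (chr13:63301199-63301283, minus strand). Its line difference was −0.60 ± 0.21 at 12 h, −0.56 ± 0.21 at 18 h and −0.97 ± 0.21 at 24 h (limma adjusted p = 0.0379, 0.0411 and 0.000393). The lines overlapped at 12 h but not at 18 h or 24 h. At 24 h the control samples had 5.82, 5.92 and 6.30 and the Ikaros samples 5.03, 4.92 and 5.18. On the other strand of this locus, miR-24-1-5p differed by −0.78 ± 0.29 at 24 h (adjusted p = 0.0334). MiR-24-2-5p, from Mir24-2 on chromosome 8, differed by −1.24 ± 0.22 (5.53e-05) and miR-24-3p by −0.70 ± 0.21 (0.00763). The second arm, miR-3074-5p, has 2 hairpins, each opposite a Mir24 gene, and differed by −0.56 ± 0.29 (adjusted p = 0.119). Whether the authors counted reads by strand is not given in the sources used here. Over the 36 samples the mean was 5.75 for miR-3074-1-3p and 6.59 for miR-3074-5p. It was 4.92 for miR-24-1-5p, 10.67 for miR-24-2-5p and 11.62 for miR-24-3p. Whether some reads of a miRNA were counted for its antisense partner was not tested.

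The abundant snoRNA product miR-3535 had 8.53, 8.25 and 8.18 in the control samples at 24 h and 7.98, 7.50 and 6.79 in the Ikaros samples. The difference was −0.90 ± 0.32 (limma adjusted p = 0.0248), lost after median subtraction and without replicate 2 or 4 (adjusted p up to 0.188). The remaining miRNAs called lower at 24 h were miR-7650-5p (−0.95), miR-6399 (−0.82), miR-1947-5p (−0.80) and miR-3098-5p (−0.58). In bulk samples such as these, fewer cells with a miRNA and less of it per cell cannot be told apart.

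**Figure D3:**
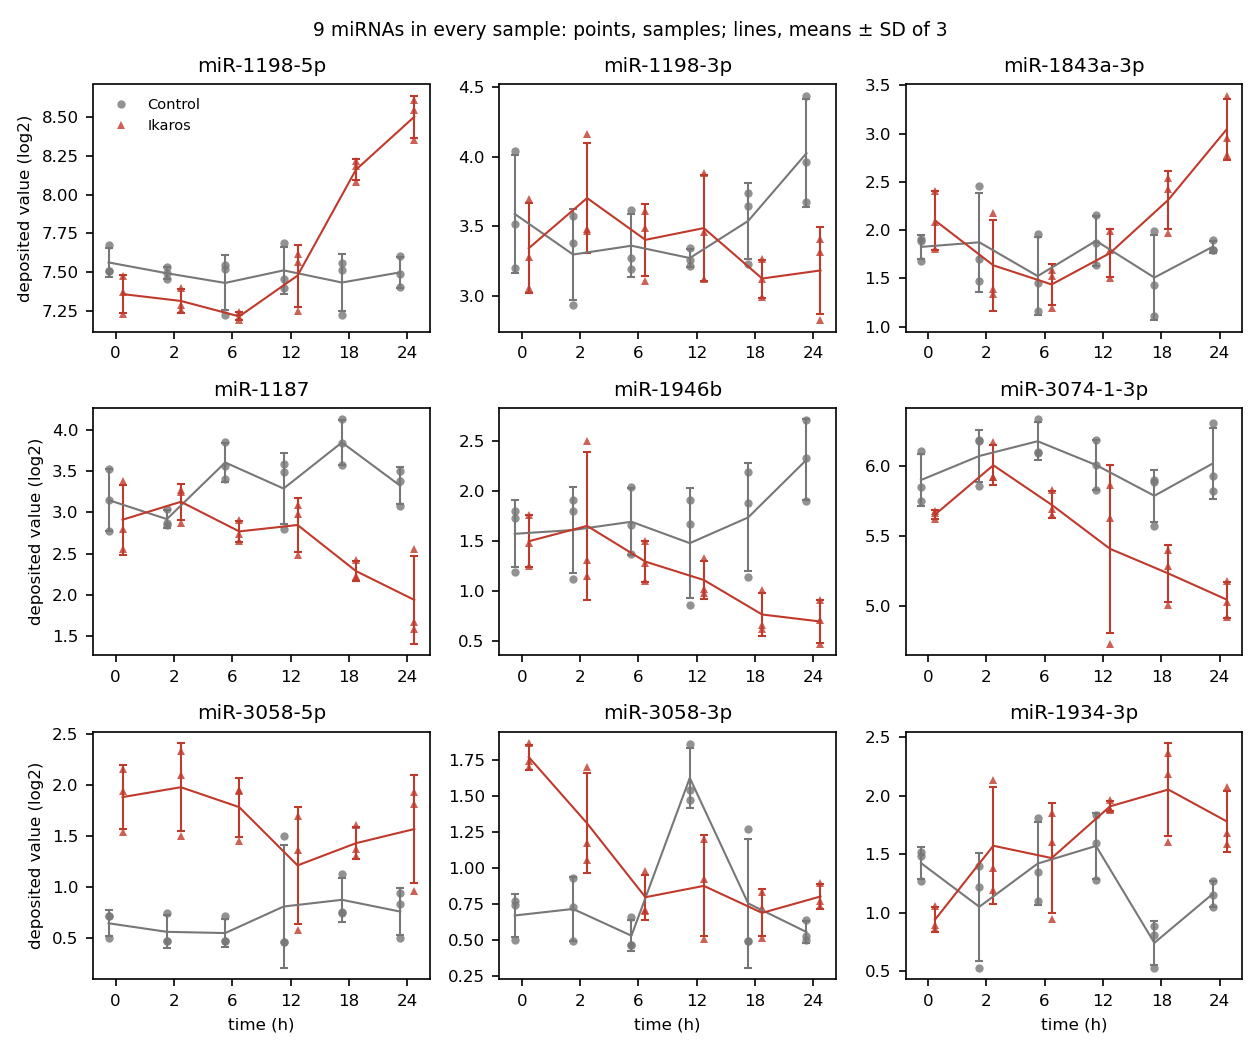
Deposited values (log2) against time (h) of 9 miRNAs in every control sample (grey circles) and Ikaros sample (red triangles), with lines through the means and bars of ± SD of 3. At 24 h the Ikaros samples of miR-1198-5p, miR-1843a-3p, miR-3058-5p and miR-1934-3p lie above all control samples, and those of miR-1198-3p, miR-1187, miR-1946b and miR-3074-1-3p lie below. The difference of miR-1934-3p at 24 h was not called (limma adjusted p = 0.0624).

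MiR-3058 differed between the lines already at 0 h. This hairpin lies in an intron of Nudt4 (chr10:95559231-95559321, minus strand). Its 2 arms were the only late-numbered miRNAs called at 0 h. MiR-3058-5p had 0.50, 0.72 and 0.72 in the control samples at 0 h and 2.16, 1.55 and 1.94 in the Ikaros samples, a difference of 1.24 ± 0.29 (limma adjusted p = 0.00387). It was called at 4 of the 6 times, more than any other, with differences of 1.42 at 2 h, 1.23 at 6 h and 0.81 at 24 h, also in the direction of the Ikaros line. The control replicates were tied at 2 h, 6 h and 12 h, at 0.47, 0.47 and 0.46. The call at 0 h was lost without replicate 1 (adjusted p = 0.2).

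MiR-3058-3p had 0.50, 0.77 and 0.74 against 1.70, 1.75 and 1.87 at 0 h, a difference of 1.10 ± 0.21 (limma adjusted p = 0.00044, and at most 0.0271 in the alternatives). At 12 h the order turned over, with 1.47, 1.55 and 1.86 in the control samples and 0.92, 0.51 and 1.20 in the Ikaros samples, a difference of −0.75 ± 0.21 (adjusted p = 0.0108). At 18 h and 24 h the difference was not called.

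At 2 h all 8 calls were increases, of 0.71 to 1.42. The share of the table called higher at 2 h was not computed. The median difference at 2 h was 0.14 over the 134 and 0.04 over the table. Besides miR-3058-5p they were miR-3069-5p (1.27), miR-6537-3p (1.21), miR-1958 (1.13), miR-5624-3p (1.07), miR-1982-3p (0.89), miR-6996-5p (0.86) and miR-1950 (0.71). In miR-1958 all 3 control samples were tied at 0.44, and in miR-5624-3p 2 of them at 0.39. At 6 h the calls were miR-3069-5p (1.31), miR-3058-5p, miR-1249-3p (0.74), miR-1981-5p (0.68) and, lower, miR-1187.

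At 12 h, where the control line had the most ties, 12 of 15 calls were increases and 4 rested on tied control replicates. Those 4 were miR-1936 (1.26), miR-3110-5p (1.21), miR-7683-5p (0.93) and miR-7668-5p (0.85). After median subtraction 17 calls at 12 h were higher and 1 lower, and after quantile normalization 7 and 4. The shares of the table called in each direction at 12 h were not computed. MiR-1936 had 1.94, 2.06 and 1.82 in the Ikaros samples, and in the control samples 1.62 and a tied pair at 0.22, while the control samples of 6 h and 18 h had 1.42 to 2.43. In a fit of the 2 groups of 12 h alone, 0 of the 134 miRNAs were called by limma and 14 had an unadjusted p under 0.05. The same 12 h comparison in the fit of all groups had 31 under that p. At 18 h, miR-1934-3p had the largest increase, with 0.89, 0.81 and 0.53 in the control samples and 2.18, 2.37 and 1.61 in the Ikaros samples (1.31 ± 0.27, adjusted p = 0.000279). Of the 14 called at 18 h, 9 (64.3%) were also called at 24 h, which is 34.6% of the 26. The same overlap was not counted for the whole table, of which 29.9% was called at 18 h and 39.9% at 24 h. Whether this overlap differs from that of other miRNAs is therefore unknown. The times share culture batches but no samples.

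**Figure D4:**
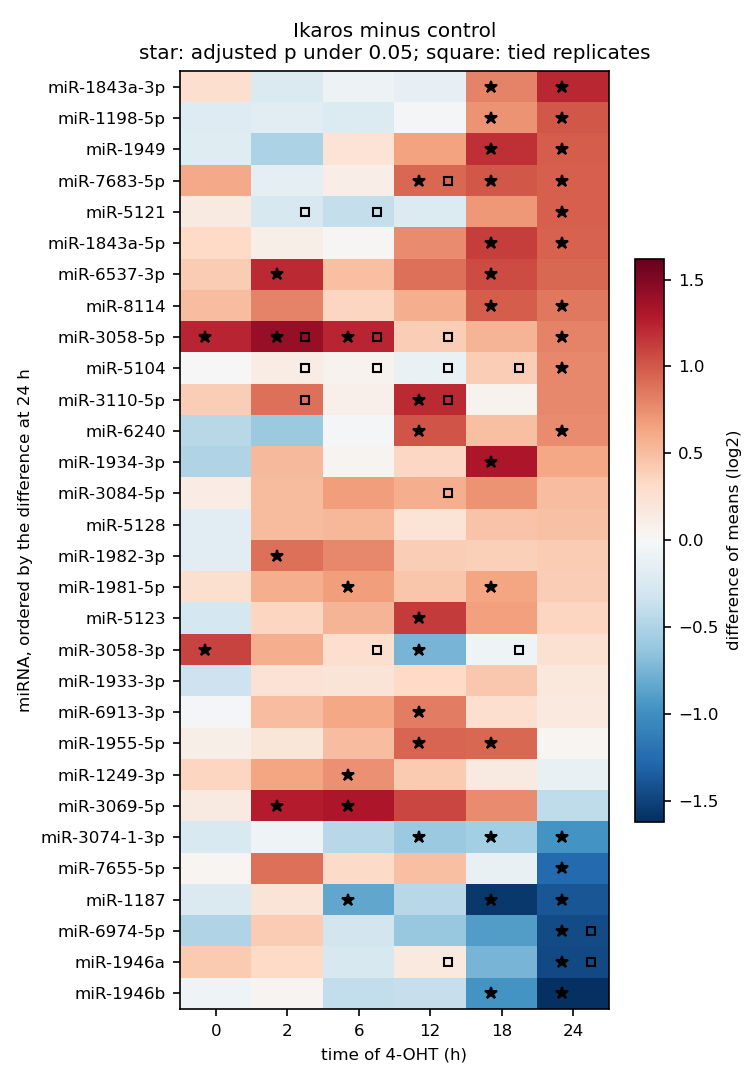
Ikaros minus control difference of means (log2, color) at 6 times (h) for the 30 miRNAs with the smallest adjusted p in any test, ordered by the difference at 24 h. Stars mark an adjusted p under 0.05 at that time and squares a group with tied replicates. MiR-1843a-3p and miR-1198-5p are starred as increases at 18 h and 24 h, miR-1946b as a decrease at those times, miR-1187 as a decrease at 6 h too, miR-1946a as a decrease at 24 h, and miR-3058-5p as an increase at 0 h, 2 h, 6 h and 24 h.

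Averaged over 2 h to 24 h, with 15 samples a line, 44 of 134 (32.8%) were called, where the table had 53.5%. The 15 samples of a line came from only 3 culture batches. The main fit counted them as independent, so its SEs and p-values for this average can be too small. A fit blocked on culture batch also called 44, but not miR-5104 (limma adjusted p = 0.0534). That block takes out only what both lines of a batch share. It still counts the times of one line within a batch as independent, so it cannot settle this point. Increases made up 35 of the 44 (27.1% of the table was called higher) and decreases 9 (26.4% lower). Of all 134, 94 had a difference above 0, with a median of 0.15 against 0.04 for the table. After median subtraction 59 were higher and 4 lower, and after quantile normalization 31 and 14. Leaving out replicate 2 reduced the 44 to 23.

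Several of the largest averaged differences belonged to miRNAs called at few single times. MiR-6537-3p, in an exon of Pou2f2, the gene of the B cell factor Oct2, was higher by 0.92 ± 0.18 (limma adjusted p = 8.16e-05). MiR-3069-5p was higher by 0.80 ± 0.18 (0.000453) and miR-8114 by 0.71 ± 0.13 (2.36e-05). At 24 h alone, however, the difference of miR-3069-5p was −0.41 and not called (limma adjusted p = 0.464). The mirtron-like pair from Marc2 was higher on both arms, by 0.55 ± 0.10 for miR-1981-5p (1.88e-05) and 0.32 ± 0.10 for miR-1981-3p (0.00978). The mirtron-like miR-1982-3p, of the antizyme gene Oaz1, was higher by 0.57 ± 0.13 (0.000408). Lower were miR-1187 (−0.81 ± 0.12), miR-1946b (−0.66 ± 0.14), miR-6974-5p (−0.57 ± 0.16) and miR-3074-1-3p (−0.53 ± 0.09).

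Ties stood in the groups of 11 of the 44. When the times with tied replicates were left out of the average, 5 of these 11 were still called (miR-3058-5p, miR-3084-5p, miR-5104, miR-7650-5p and miR-7683-5p) and 6 were not. The 6 were miR-1958, miR-3110-5p, miR-5622-5p, miR-6974-5p, miR-7064-5p and miR-7668-5p, with limma adjusted p between 0.111 and 0.359. With every tied miRNA removed before the fit, 33 calls were made among the untied ones.

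The second comparison asked which miRNAs moved with time. In the Ikaros line 20 of 134 (14.9%) changed over the 6 times (F test, 26.7% of the table called), and in the control line 2 (0.426% of the table), which were the only 2 of the whole table. MiR-6240 and miR-3058-3p were called in both lines. In the control line miR-6240 had its lowest mean, 0.90, and miR-3058-3p its highest, 1.63, at 12 h. In the study's drawing, control samples of 2 h to 18 h lay mostly in another sequencing batch than those of 0 h and 24 h. Time and sequencing batch in the control course can thus be told apart only through the authors' correction. In the control line 16 of the 134 had an unadjusted p under 0.05, and without replicate 2 or 4 limma called 0, with 8 and 12 under that unadjusted p. Of the 20 in the Ikaros line, 9 were higher at 24 h than at 0 h and 11 lower. Without replicate 1 or 2, 8 and 3 miRNAs were called. MiR-1198-5p, miR-1843a-3p and miR-1949 were the 3 called in every alternative that tested them.

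The smallest adjusted p among the courses was that of miR-1198-5p, with Ikaros means of 7.36, 7.31, 7.21, 7.48, 8.16 and 8.50 from 0 h to 24 h (limma adjusted p = 1.46e-08, and 0.0011 or less in every alternative). MiR-1949, annotated also as a snoRNA, went from 3.31 at 0 h to 4.65 at 18 h and 4.90 at 24 h (adjusted p = 0.000786). MiR-1843a-3p was at its lowest, 1.44, at 6 h and at 3.04 at 24 h (0.000468). Among the courses that declined, miR-1187 went from 2.91 to 1.94, miR-7655-5p from 2.38 to 1.35 and miR-3074-1-3p from 5.65 to 5.04. Others peaked early, with miR-1249-3p at 7.42 at 0 h, 8.07 at 6 h and 7.18 at 24 h (0.0179), and miR-6399 and miR-6992-5p also highest at 6 h and lowest at 24 h. Of the 22 miRNAs at intron ends, 0 were called in the Ikaros course by limma (26.7% of the table), and 2 had an unadjusted p under 0.05. In the comparison of lines, 2 of the 22 were called at 24 h (39.9% of the table) and 7 in the average over 2 h to 24 h (53.5%).

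A difference between the lines at 24 h beyond that at 0 h was called for 6 of 134, where the table had 12.37%. They were miR-1198-5p (1.21 ± 0.19), miR-6240 (1.21 ± 0.38), miR-1934-3p (1.11 ± 0.38), miR-1187 (−1.15 ± 0.38), miR-1946b (−1.54 ± 0.46) and miR-1946a (−1.89 ± 0.59). MiR-1934-3p lay at the threshold, and in a fit blocked on replicate number it was not called (adjusted p = 0.0521). Without replicate 1, 2 and 4 in turn, 1, 2 and 2 miRNAs were called, and miR-1198-5p was the only one called in every alternative (limma adjusted p = 7.34e-05, at most 0.0316). The interaction of line and time over all 6 times was called for 9 of 134, where the table had 13.0%, and without replicate 1, 2 and 4 in turn for 3, 1 and 1. The interaction of miR-1936 was not called once 12 h was left out (adjusted p = 0.295), whereas that of miR-3058-3p was called without its tied times (0.000303). The call of miR-3058-3p was, however, lost without replicate 1, 2 or 4 (limma adjusted p up to 0.105).

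The miRNAs whose 12 group means ran most like those of miR-1198-5p were miR-149-5p (Pearson r = 0.97), miR-5121 (0.93) and miR-26a-5p (0.92). MiR-1843a-3p was most like miR-1198-5p (0.91), and miR-1949 most like miR-26a-5p (0.94). The 12 points share libraries between miRNAs, so these are descriptions.

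Both arms were in the table for 21 hairpins. The 5p arm was the higher in every one of the 36 samples for 8 of them, the 3p arm for 5, and the order varied between samples for 8. The widest gaps were those of miR-1249, whose 3p arm exceeded its 5p arm by 5.02 to 7.33, and miR-1933, by 3.95 to 5.57, while the 5p arm of miR-1198 led by 3.05 to 5.52. At 24 h the arms differed between lines in the same direction for 14 of the 21 hairpins and in opposite directions for 7, and miR-1198 was the only hairpin with both arms called in opposite directions.

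**Figure D5:**
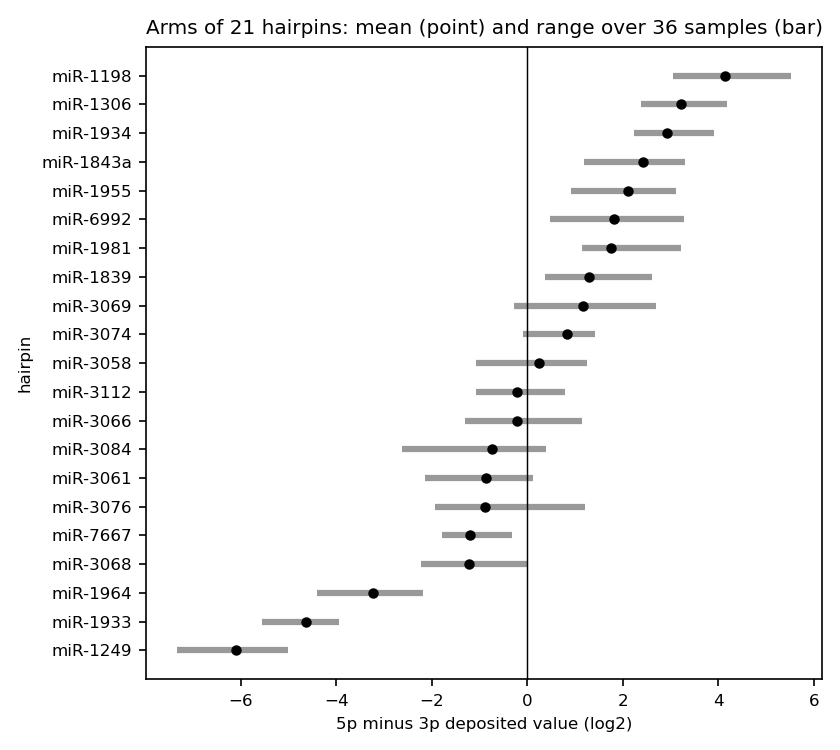
Deposited value of the 5p arm minus that of the 3p arm (log2) for 21 hairpins with both arms in the table. Points are means and bars the range over 36 samples. Bars that do not cross 0 belong to the 8 hairpins with a higher 5p arm and the 5 with a higher 3p arm in every sample.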

How the data were processed

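Small RNA libraries (TruSeq) of 36 samples were sequenced and processed by the authors: reads were aligned with Novoalign to mouse miRBase miRNAs, counted with multiBamCov (bedtools), filtered on CPM with NOISeq, corrected for GC content with cqn, normalized by TMM, corrected for batch with ComBat, and technical replicates were averaged. The deposited table holds log2 expression values per miRNA, without counts, so the reads behind each value are unknown. The study states reads per sample only as a range. The labels give mm10 as the build.

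Values were used as deposited. Groups came from the labels. A limma 3.58.1 fit (R 4.3.3) of 12 group means over 469 miRNAs, with a trended prior and Benjamini-Hochberg adjustment over all miRNAs, gave 11 tests, called at 0.05. The fit was tested on simulated data. Same-numbered control and Ikaros samples share a culture batch in the labels, and their deviations from the group means correlated with r = 0.063 to 0.410 across times. This pairing was used as a replicate block in an alternative, on culture batch for the line tests at single times and on average. For 24 h beyond 0 h, the interaction and the courses, the block was replicate number. That number joins different culture batches at 0 h and later, so there it is not a pairing by culture. The other alternatives were 2 scalings, a filter on means under 3, no trend, the 2 groups alone, 1 replicate left out, and 2 treatments of ties chosen after seeing the data. Hairpins were placed with GENCODE vM21, and sequences were taken from RefSeq.

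The miRNAs, lists and tests were chosen with earlier results of these data known. MiRNAs were named if among the 30 smallest adjusted p-values, the 5 highest or lowest means, or if they had ties, both arms, mirtron-like ends or another small RNA gene. MiR-1947-5p, miR-1950, miR-3098-5p, miR-6399 and miR-6996-5p were named after their values were seen.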

Additional observations from a re-analysis of the deposited data

Results flagged for a closer look

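Line differences that changed with time are collected here. The difference between Ikaros and control at 24 h, minus that at 0 h, was 1.21 for miR-1198-5p, 1.21 for miR-6240, 1.11 for miR-1934-3p, −1.15 for miR-1187, −1.54 for miR-1946b and −1.89 for miR-1946a (log2). All 3 Ikaros samples of miR-1946a at 24 h were tied. No culture batch held both 0 h and 24 h samples, so time and culture batch cannot be told apart in these differences.

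The interaction of line and time over the 6 times had limma adjusted p-values of 1.47e-05 for miR-1198-5p, 0.000978 for miR-3058-3p, 0.0062 for miR-1187, 0.00941 for miR-6240, 0.0152 for miR-1936, 0.0163 for miR-1934-3p, 0.0217 for miR-3098-5p, 0.0217 for miR-7655-5p and 0.0325 for miR-1843a-3p. Control replicates were tied at 12 h for miR-1936 and at 6 h and 18 h for miR-3058-3p. Groups of 3 are too small for a test of single outlying samples.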

How the results depend on the processing

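The reads behind each value are unknown, so whether a rare miRNA was missed in a sample cannot be told from its value, and 3 samples a group leave each call dependent on single cultures. Counts are of the 134 miRNAs called by limma. No call of a line difference changed direction in any alternative. A filter on means under 3 left 36 of the 134, of which the 0 h test called 0 (0 also at an unadjusted p under 0.05), the 2 h test 0 (5 unadjusted), the 6 h and 12 h tests 3 each, the 18 h test 7, the 24 h test 11, and the tests across times 15 on average over 2 h to 24 h, 2 at 24 h beyond 0 h, 4 in the interaction, 11 in the Ikaros course and 0 in the control course (2 unadjusted), since most of the miRNAs were no longer tested. With tied miRNAs left out, 105 were tested and 0 were called at 0 h (0 unadjusted), 3 at 2 h, 9 at 12 h, 16 at 24 h and 1 in the control course. In the 2 groups alone, 2 were called at 2 h and 0 at 12 h (14 unadjusted). Quantile normalization gave 5 at 2 h and median subtraction 3 at 24 h beyond 0 h. The cause of these last 4 shifts was not tested. Over the fits that each left out 1 replicate, the counts ran from 1 to 2 (0 h), 1 to 3 (2 h), 0 to 1 (6 h), 0 to 13 (12 h), 5 to 13 (18 h) and 8 to 16 (24 h) in the line tests, 23 to 37 on average, 1 to 2 at 24 h beyond 0 h, 1 to 3 in the interaction, 3 to 17 in the Ikaros course and 0 to 2 in the control course, with fewer samples in each fit. With the replicate block the counts were 2, 9, 5, 14, 15 and 26 at 0 h to 24 h, 44 on average, 5 beyond 0 h, 11 in the interaction, 18 in the Ikaros course and 2 in the control course, none of them moved by over 1.5 times. The replicate block lost 4 of 109 single calls, miR-5104 on average (adjusted p = 0.0534), miR-1934-3p beyond 0 h (0.0521) and miR-6399 and miR-6996-5p in the Ikaros course (0.063 and 0.0502). Among calls of single miRNAs, 7 of 26 at 24 h and 12 of 44 on average were made in every alternative that tested them.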
